A study of Mus musculus with 44 samples.

Results

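Dppa3, Kit and Tfap2c are genes known from the precursors of germ cells, and their RNA levels were followed across 11 groups of mouse embryonic stem (ES) cell arrays. All probe sets annotated with one of these gene symbols were taken, which gave 3 of the 12422 probe sets tested, 1 for each gene (97283_at for Dppa3, 99956_at for Kit and 92275_at for Tfap2c). The genes had been selected on their higher level in recombined than in unrecombined Hex cells of these same arrays. Values of the Hex cells, against each other and against wild type, are therefore given as a description with no test, and tests are given for the other cells.

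All cells were of the mouse ES line CGR8, clone cgr8.8, and 44 Affymetrix MG-U74Av2 arrays measured their total RNA. Hex is a homeodomain protein that regulates transcription, encoded by Hhex, and the study looked for its target genes. HexERTVP2 is, as its name reads, Hex joined to an oestrogen receptor domain that 4-hydroxytamoxifen (4-OHT) binds and to a VP activation domain. Either sequence had been targeted to the Rosa26 locus. The groups were recombined Hex cells (4 arrays) and unrecombined Hex cells (4 arrays), recombined clone 1 of HexERTVP2 with 4-OHT (4 arrays) and without it (4 arrays), and unrecombined clone 1 with 4-OHT (3 arrays) and without it (5 arrays). Recombined clone 2 of HexERTVP2 with 4-OHT and without it, and unrecombined clone 2 with 4-OHT and without it, had 3 arrays each, and untargeted wild-type cells had 4. Another 4 arrays, whose labels contradict themselves on clone or treatment, entered no comparison. The labels give no dose or duration of 4-OHT, do not say what was recombined, and name no separate cultures for the arrays of 1 group. P-values therefore measure only the spread between these arrays, which may be technical. Each HexERTVP2 clone is a single cell clone, so the insertion and any other difference between clones cannot be told apart.

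Germ cell precursors (primordial germ cells) arise in the early mouse embryo when BMP signals switch on Prdm1, Prdm14 and Tfap2c, and they share several genes with ES cells. Dppa3 (Stella) encodes a protein that marks these precursors and, in the zygote, protects maternal DNA methylation. Kit is the receptor tyrosine kinase for stem cell factor, the product of Kitl, and carries survival and migration signals in germ cells, blood precursors and mast cells. Tfap2c encodes the transcription factor AP-2γ, which acts downstream of Prdm1 in germ cell precursors and is also a regulator of trophoblast.

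Markers of ES cells were high in all cultures. All 8 ES cell markers examined, Pou5f1, Nanog and Sox2 among them, lay above the array median in every group, while 3 of 6 markers of germ cell precursors were on the array. Of these, the surface protein gene Ifitm3 was high (group means of 9.75 to 10.42 on the log2 intensity scale), whereas Prdm1 (4.94 to 5.54) and Ifitm1 (5.36 to 5.84) lay below the median probe set mean of 6.77. Of 5 measured markers of later germ cells, Ddx4 and Dazl among them, at most 1 lay above the array median in any group, and of 7 trophoblast markers, 1 did. Of 8 fibroblast (feeder) markers 4 or 5 lay above it in each group, Col1a1 and Col1a2 among them, and of 8 blood and mast cell markers 2 or 3 did. The fibroblast markers Col3a1 (5.97 to 6.19), Lum (4.91 to 5.12) and Postn (3.44 to 3.66) lay below 6.77 in every group. Group means of Acta2 ranged from 5.98 to 8.32. The summed intensity of the fibroblast markers was 1420 to 1740 in recombined Hex cells, 1260 to 1329 in unrecombined Hex cells without the array described next, and 1318 to 1410 in wild-type cells, so recombined Hex cells lay above both. In clone 2 without 4-OHT it overlapped, with 1354 to 1517 in recombined and 1335 to 1644 in unrecombined cells. It also overlapped in clone 1 without 4-OHT, with 1585 to 1915 in recombined and 1519 to 1680 in unrecombined cells, both above wild type. The part of fibroblast RNA in the results was not tested. In RNA from whole cultures, fewer cells expressing a gene and less RNA per cell cannot be told apart.

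Array 2 of the unrecombined Hex cells stood apart from the rest. Its mean correlation with the other arrays was 0.869, against at least 0.978 for every other array, and all 3 genes had their lowest value of the series on it. Because 1 spread per probe set was estimated from all 40 assigned arrays, this array widened the errors of every comparison, also of those that do not use its group. Results are therefore given with it and, where the call differed, without it. The log2 ratio of the β-actin 3′ to 5′ probe sets, a sign of RNA integrity, varied from 0.56 to 2.34 between arrays, and array medians lay between 106.3 and 112.3 intensity units.

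Among all probe sets the 3 genes were of middle to high intensity and varied widely. Their means were 7.62 for Dppa3, 7.67 for Kit and 8.93 for Tfap2c on the log2 scale, at percentiles 67.4, 68.3 and 87.1 of all probe sets. Group means spanned 1.84 log2 units for Dppa3, 0.93 for Kit and 0.93 for Tfap2c without array 2 of unrecombined Hex. These ranges lay at percentiles 99.8, 98.0 and 98.0, and the genes had been chosen partly by such a difference. Probe sets differ in sensitivity, so the level of one gene was not set against that of another.

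**Figure D1:**
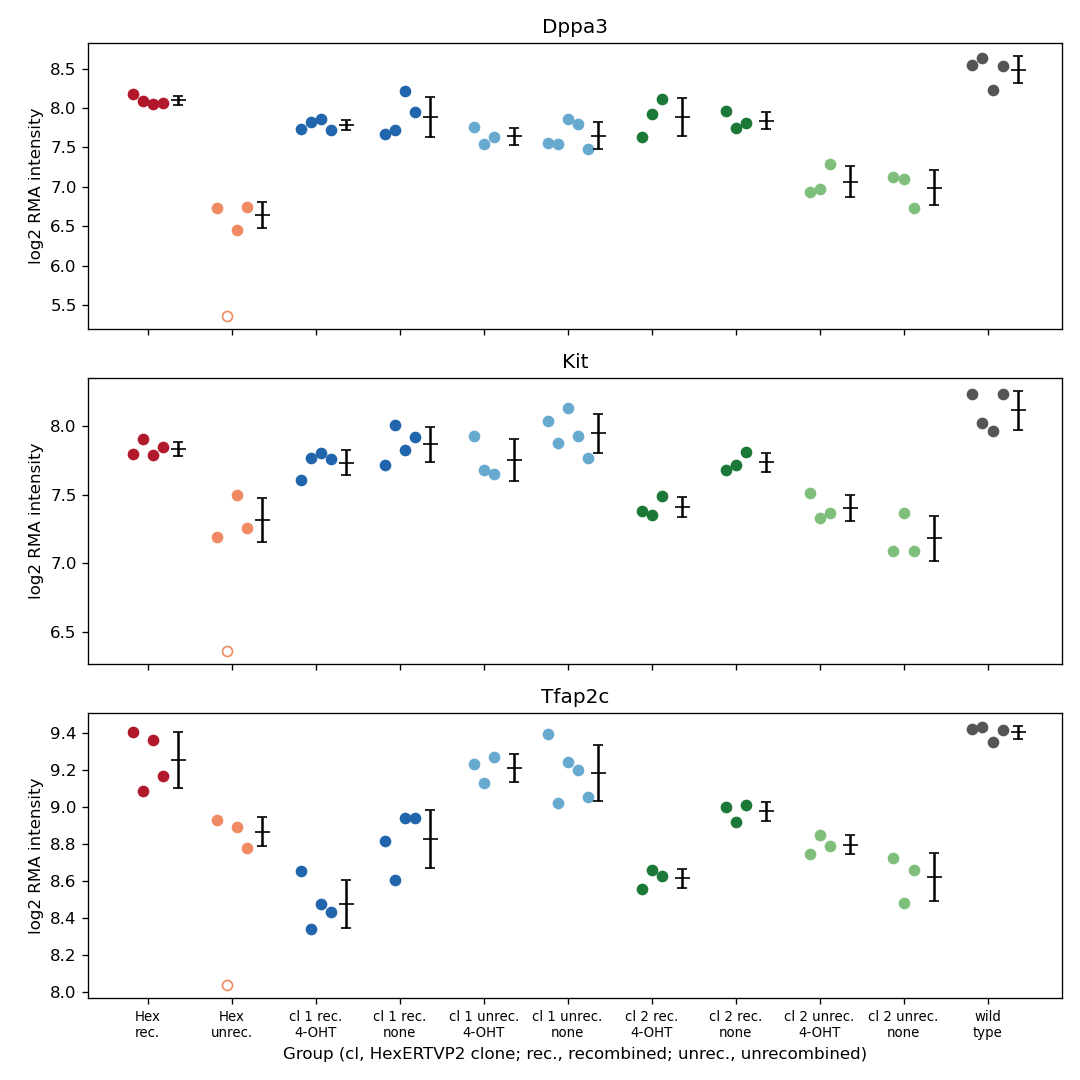
Log2 RMA intensity of Dppa3, Kit and Tfap2c (vertical axes) on each of 40 arrays, in 11 groups along the horizontal axis. Points are arrays, the open point is array 2 of unrecombined Hex, and the black bars show the group mean ± SD without that array. Wild-type means (8.49, 8.11 and 9.41) are the highest in each panel, and unrecombined clone 2 lies below unrecombined clone 1 for all 3 genes.

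Dppa3 showed the widest range. Recombined Hex cells read 8.18, 8.10, 8.06 and 8.06 on the log2 intensity scale, unrecombined Hex cells 6.74, 5.36, 6.45 and 6.74, and wild-type cells 8.55, 8.63, 8.24 and 8.54. Every recombined Hex array lay above every unrecombined one, and both groups lay below every wild-type array. Here and below, arrays that do not overlap are a description, and the share of all probe sets without overlap was not counted. Recombined Hex cells were 1.78 ± 0.18 log2 units (SE) above unrecombined ones, a ratio of 3.42, and 1.45 ± 0.13 above them without array 2. In this comparison, which chose the genes, 3.37% of all probe sets were called at an adjusted p under 0.05. Against wild type, Dppa3 was lower in recombined Hex cells (log2 change −0.39 ± 0.18; 0.266% of probe sets called) and lower still in unrecombined Hex cells (−2.17 ± 0.18; 4.82% called). The lower side of the recombination comparison was thus the one farther from wild type.

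The same gene fell in unrecombined HexERTVP2 cells, on arrays that were not used to choose it. Unrecombined cells without 4-OHT read 7.56, 7.55, 7.86, 7.80 and 7.49 in clone 1 and 7.13, 7.10 and 6.73 in clone 2, all below the lowest wild-type array. Averaged over the clones, Dppa3 was below wild type (log2 change −1.17 ± 0.16, limma adjusted p = 2.91e-05), a ratio of 0.445, where 1.46% of probe sets were called. The fall passed in clone 2 (−1.50 ± 0.20, adjusted p = 7.00e-06; 6.79% called) and in clone 1 (−0.84 ± 0.17, adjusted p = 0.0140; 0.298% called). In clone 1 the call was lost when array 2 or 5 of that group or wild-type array 1, 2 or 4 was left out, with adjusted p up to 0.0860, and after a second quantile normalisation (−0.80, adjusted p = 0.0844). These comparisons share the wild-type arrays with each other and with the Hex comparisons above.

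Recombined HexERTVP2 cells without 4-OHT had more Dppa3 than unrecombined ones in clone 2. Recombined clone 2 read 7.96, 7.75 and 7.81, and every one of its arrays lay above the 3 arrays of unrecombined clone 2. The change was 0.85 ± 0.21 log2 units, a ratio of 1.81, which did not pass with all arrays (adjusted p = 0.0699; 0.322% of probe sets called) and passed without array 2 of unrecombined Hex (0.85 ± 0.14, adjusted p = 2.81e-04; 4.17% called). Recombined clone 1 read 7.67, 7.72, 8.22 and 7.96, a range that overlapped unrecombined clone 1. Its change was 0.24 ± 0.17 (adjusted p = 0.974; 0.547% called). The mean over clones was 0.55 ± 0.14 (adjusted p = 0.0563; 0.467% called), and without array 2 its adjusted p was 2.96e-04 (3.38% called). It also passed when array 1 or 4 of unrecombined Hex or array 1 of unrecombined clone 2 was left out. The difference between the clones' responses, 0.61 ± 0.27, did not pass with all arrays (adjusted p = 0.614; 0.29% called) or without array 2 (adjusted p = 0.0740; 1.35% called).

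The β-actin ratio was also higher in recombined cells, by 0.57 log2 units in clone 1 and 0.30 in clone 2. With that ratio as a covariate, the change of Dppa3 with recombination averaged over clones was 0.55 with all arrays (adjusted p = 0.0608) and 0.48 without array 2 (adjusted p = 7.87e-04). The part of RNA integrity in the change was not tested.

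4-OHT left no call on Dppa3. Recombined cells with 4-OHT read 7.74, 7.82, 7.86 and 7.72 in clone 1 and 7.63, 7.93 and 8.11 in clone 2, and unrecombined cells with 4-OHT 7.76, 7.54 and 7.63 in clone 1 and 6.93, 6.97 and 7.29 in clone 2. Each of these groups overlapped its counterpart without 4-OHT. The change averaged over the clones was −0.03 (95% interval −0.31 to 0.25) in recombined cells and 0.04 (−0.25 to 0.32) in unrecombined cells, with adjusted p of 1.0 in both (0.0322% and 0% of probe sets called; in the second, limma gave 169 probe sets at an unadjusted p under 0.05). Under 4-OHT the recombined arrays of clone 2 again lay above the unrecombined ones. That change was 0.83 ± 0.21 (adjusted p = 0.214; 0.105% called), and it passed without array 2 of unrecombined Hex (adjusted p = 8.88e-04; 0.322% called). In clone 1 under 4-OHT the change was 0.14 ± 0.20 (adjusted p = 1.0; 0.209% called).

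In order of group means, Dppa3 was highest in wild-type cells (8.49 ± 0.17, SD, n = 4) and next in recombined Hex cells (8.10 ± 0.06, SD, n = 4), whose arrays did not overlap those of wild type. Then came the recombined HexERTVP2 groups and unrecombined clone 1, between 7.89 and 7.64, each overlapping its neighbour in the order. After a gap came unrecombined clone 2 with 4-OHT (7.07 ± 0.20, SD, n = 3) and without it (6.99 ± 0.22, SD, n = 3), and unrecombined Hex cells without array 2 (6.64 ± 0.17, SD, n = 3), which overlapped one after another. Without 4-OHT, unrecombined clone 2 was 0.67 log2 units below unrecombined clone 1 (log2 change −0.67 ± 0.19), which did not pass with all arrays (adjusted p = 0.0533) and passed without array 2 (adjusted p = 5.76e-04).

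Kit, the receptor among the genes, has its start site on mouse chromosome 5. The first of its 2 RefSeq promoter windows along the chromosome is shown (chr5:75574737-75575036, plus strand, GRCm38.p6, 250 bases before to 50 after the start). It holds a match to the palindrome GCCNNNGGC that AP-2 proteins such as that of Tfap2c are known to bind. The capitals mark that match, which starts at base 117 of the window:

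Kit promoter: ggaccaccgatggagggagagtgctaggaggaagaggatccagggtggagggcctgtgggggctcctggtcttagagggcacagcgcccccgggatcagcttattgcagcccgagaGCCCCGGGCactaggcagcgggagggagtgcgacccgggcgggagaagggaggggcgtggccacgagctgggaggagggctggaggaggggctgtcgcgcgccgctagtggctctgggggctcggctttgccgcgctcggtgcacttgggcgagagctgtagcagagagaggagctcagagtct

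Of the 3 genes only Kit was in the RefSeq promoter table used. On both strands, GCCNNNGGC was found in 16.59% of 32851 promoter windows of the same length and in both windows of Kit. The window shown was 69.0% G or C against a median of 52.7%. The homeodomain motif CAATTAA (2.58% of windows), its core TAAT (58.03%) and the octamer ATGCAAAT (1.74%) were found in neither window of Kit. The arrays do not measure binding, and these matches are a description of the sequence.

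For Kit, recombined Hex cells read 7.80, 7.90, 7.78 and 7.85, unrecombined Hex cells 7.19, 6.37, 7.49 and 7.26, and wild-type cells 8.23, 8.02, 7.96 and 8.23. The 3 groups did not overlap, in the same order as for Dppa3. Recombined Hex cells were 0.75 ± 0.13 log2 units above unrecombined ones, a ratio of 1.69, and 0.52 ± 0.09 above them without array 2. Against wild type the differences were −0.28 ± 0.13 for recombined and −1.03 ± 0.13 for unrecombined Hex cells.

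Kit differed between the HexERTVP2 clones. Unrecombined cells without 4-OHT read 7.09, 7.37 and 7.09 in clone 2, against 8.04, 7.87, 8.13, 7.93 and 7.76 in clone 1. The arrays did not overlap, and Kit was lower in unrecombined clone 2 than in unrecombined clone 1 (log2 change −0.76 ± 0.14, adjusted p = 0.0014; 2.01% of probe sets called, and 12.5% without array 2). In recombined cells without 4-OHT, clone 2 read 7.68, 7.72 and 7.81, against 7.71, 8.01, 7.83 and 7.92 in clone 1, and the groups overlapped. That difference was −0.13 (95% interval −0.43 to 0.16, adjusted p = 1.0; 0.266% called). Over all 4 states Kit was lower in clone 2 than in clone 1 (−0.39 ± 0.07, adjusted p = 0.0016; 1.22% called, and 3.25% without array 2). Against wild type, Kit fell in unrecombined clone 2 (−0.93 ± 0.15, adjusted p = 1.16e-04), whereas unrecombined clone 1 overlapped wild type (−0.17 ± 0.13, adjusted p = 1.0). The mean of the clones was −0.55 ± 0.12 against wild type (adjusted p = 0.0086), and this call was lost without wild-type array 1 or 4 (adjusted p up to 0.0656).

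Recombination without 4-OHT was accompanied by more Kit in clone 2, whose recombined and unrecombined arrays did not overlap. The change was 0.55 ± 0.16 log2 units (adjusted p = 0.137), and it passed without array 2 of unrecombined Hex (adjusted p = 0.0012). In clone 1 the change was −0.08 ± 0.13 (adjusted p = 0.974). The difference between the clones, 0.63 ± 0.20, did not pass with all arrays (adjusted p = 0.303) and passed without array 2 (0.63 ± 0.13, adjusted p = 0.0062). The mean over the clones was 0.24 ± 0.10 (adjusted p = 0.375), and 0.0375 was its adjusted p without array 2.

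With 4-OHT, recombined cells read 7.60, 7.77, 7.80 and 7.76 for Kit in clone 1 and 7.38, 7.35 and 7.49 in clone 2. Unrecombined cells with 4-OHT read 7.92, 7.68 and 7.65 in clone 1 and 7.51, 7.33 and 7.37 in clone 2. In recombined clone 2 all 3 arrays with 4-OHT lay below the 3 without it, a change of −0.32 ± 0.16 that did not pass (adjusted p = 1.0; 0% of probe sets called, 62 of them at an unadjusted p under 0.05 in limma). In recombined clone 1 the groups overlapped (−0.13 ± 0.13, adjusted p = 1.0; 0.00805% called). The mean over the clones was −0.23 ± 0.10 in recombined cells and 0.01 ± 0.10 in unrecombined cells (adjusted p of 1.0 in both). Under 4-OHT, recombined and unrecombined cells of clone 2 differed by 0.01 (95% interval −0.31 to 0.32), against 0.55 without 4-OHT.

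In order of group means, Kit was highest in wild-type cells (8.11 ± 0.14, SD, n = 4). From there to recombined clone 1 with 4-OHT (7.73 ± 0.09, SD, n = 4) each group overlapped the next, in the order unrecombined clone 1, recombined clone 1, recombined Hex, unrecombined clone 1 with 4-OHT and recombined clone 2. A gap followed, and the low groups were recombined clone 2 with 4-OHT (7.41 ± 0.07, SD, n = 3), unrecombined clone 2 with 4-OHT (7.40 ± 0.10, SD, n = 3), unrecombined Hex without array 2 (7.32 ± 0.16, SD, n = 3) and unrecombined clone 2 (7.18 ± 0.16, SD, n = 3), again overlapping one after another.

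Tfap2c, the transcription factor among the genes, had the direction of the other genes in the Hex line, by which they had all been chosen. With recombination of HexERTVP2 without 4-OHT it had their direction in clone 2 as well. In clone 1 its change was −0.36, against 0.24 for Dppa3 and −0.08 for Kit. Recombined Hex cells read 9.41, 9.09, 9.36 and 9.17, unrecombined Hex cells 8.93, 8.04, 8.90 and 8.78, and wild-type cells 9.42, 9.43, 9.36 and 9.42. Recombined arrays lay above all unrecombined ones and overlapped wild type. The difference between recombined and unrecombined Hex cells was 0.60 ± 0.12 log2 units, a ratio of 1.51, and 0.39 ± 0.09 without array 2. Against wild type the differences were −0.15 ± 0.12 for recombined and −0.75 ± 0.12 for unrecombined Hex cells.

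Before recombination, clone 2 of HexERTVP2 had less Tfap2c than clone 1. Without 4-OHT, unrecombined clone 2 read 8.73, 8.48 and 8.66, against 9.40, 9.03, 9.25, 9.20 and 9.06 in unrecombined clone 1. The arrays did not overlap, and the difference was −0.56 ± 0.13 (adjusted p = 0.0143), a call that was lost without array 2 or 3 of unrecombined clone 2 (adjusted p up to 0.0698). Against wild type Tfap2c fell in unrecombined clone 2 (−0.78 ± 0.13, adjusted p = 3.07e-04) and averaged over the clones (−0.50 ± 0.11, adjusted p = 0.0083). Unrecombined clone 1 overlapped wild type (−0.22 ± 0.12, adjusted p = 1.0).

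The difference in Tfap2c between recombined and unrecombined cells had opposite signs in the clones. Recombined clone 2 without 4-OHT read 9.003, 8.92 and 9.01, all above every array of unrecombined clone 2. Recombined clone 1 read 8.82, 8.61, 8.94 and 8.94, all below every array of unrecombined clone 1. The changes were 0.35 ± 0.14 in clone 2 (adjusted p = 0.346) and −0.36 ± 0.12 in clone 1 (adjusted p = 0.303). Both passed without array 2 of unrecombined Hex, with an adjusted p of 0.0291 in clone 2 (4.17% of probe sets called) and 0.0102 in clone 1 (1.32% called). The difference between the clones was 0.71 ± 0.18 with all arrays (adjusted p = 0.112) and passed without array 2 (0.71 ± 0.12, adjusted p = 0.0010). The mean over the clones was −0.00 ± 0.09. The clone-level comparisons were added after the values had been seen.

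Tfap2c was lower with 4-OHT in recombined cells averaged over the clones, a change that passed only without array 2 of unrecombined Hex. With 4-OHT, recombined clone 1 read 8.65, 8.34, 8.48 and 8.44 and recombined clone 2 read 8.56, 8.66 and 8.63. In clone 2 these lay below all arrays without 4-OHT, and in clone 1 only the highest of them, 8.65, exceeded the lowest array without 4-OHT, 8.61. The change averaged over the clones was −0.36 ± 0.09 (adjusted p = 0.502). Without array 2 of unrecombined Hex it passed (−0.36 ± 0.06, adjusted p = 0.0047, with 0.145% of probe sets called). This Tfap2c value was known from earlier results of these data when the test was planned. The same holds for the response of recombined minus unrecombined cells given below. The change was −0.36 ± 0.14 in clone 2 and −0.35 ± 0.12 in clone 1, and neither passed alone, with all arrays (adjusted p = 1.0 in both) or without array 2 (adjusted p = 1.0 in clone 2 and 0.148 in clone 1). The difference between them was −0.01 (95% interval −0.39 to 0.37; 0% of probe sets called in limma, 92 of them at an unadjusted p under 0.05).

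Unrecombined cells with 4-OHT read 9.24, 9.13 and 9.27 in clone 1 and 8.75, 8.85 and 8.79 in clone 2. In clone 2 every array with 4-OHT lay above those without it (8.48 to 8.73), and in clone 1 the arrays overlapped. The change of unrecombined cells with 4-OHT, averaged over the clones, was 0.10 ± 0.10 (adjusted p = 1.0), and it was not tested in each clone. The response of recombined cells minus that of unrecombined cells was −0.46 ± 0.13 (adjusted p = 1.0; 0.0161% called), which passed without array 2 (−0.46 ± 0.09, adjusted p = 0.0318; 0.0644% called). For Dppa3 and Kit this difference was −0.06 and −0.24, and did not pass with or without that array. The β-actin ratio differed with 4-OHT by −0.62 in recombined clone 1 and by 0.32 in recombined clone 2. With the ratio as a covariate the Tfap2c change in recombined cells was −0.35 with all arrays (adjusted p = 0.365) and −0.33 without array 2 (adjusted p = 2.02e-04). The fit without array 2 was chosen after seeing the data, and the part of RNA integrity in the change was not tested.

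Where recombined and unrecombined cells were both given 4-OHT, Tfap2c was lower in recombined cells, and this was the one call on the genes between recombined and unrecombined HexERTVP2 cells averaged over the clones with all arrays. The change was −0.46 ± 0.10 log2 units, a ratio of 0.728 (adjusted p = 0.0296; 0.185% of probe sets called). Without array 2 of unrecombined Hex the adjusted p was 7.19e-05 (0.523% called). The call was lost without any 1 of 11 arrays, which were all arrays of this comparison except array 2 of unrecombined clone 1 and array 1 of recombined clone 1 (adjusted p up to 0.105). The fall passed in clone 1 (−0.74 ± 0.13, adjusted p = 0.0040) and not in clone 2 (−0.18 ± 0.14, adjusted p = 1.0), where the arrays did not overlap. Dppa3 differed by 0.48 ± 0.14 in this comparison (adjusted p = 0.416, and 0.0049 without array 2), and Kit differed by −0.01 ± 0.11.

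In order of group means, Tfap2c was highest in wild-type cells (9.41 ± 0.04, SD, n = 4), recombined Hex cells (9.26 ± 0.15, SD, n = 4) and unrecombined clone 1 with 4-OHT (9.21 ± 0.07, SD, n = 3) and without it (9.19 ± 0.15, SD, n = 5), each overlapping the next. A gap separated these from recombined clone 2 (8.98 ± 0.05, SD, n = 3), unrecombined Hex without array 2 (8.87 ± 0.08, SD, n = 3), recombined clone 1 (8.83 ± 0.16, SD, n = 4) and unrecombined clone 2 with 4-OHT (8.798 ± 0.05, SD, n = 3). The lowest were unrecombined clone 2 (8.62 ± 0.13, SD, n = 3), recombined clone 2 with 4-OHT (8.62 ± 0.05, SD, n = 3) and recombined clone 1 with 4-OHT (8.48 ± 0.13, SD, n = 4).

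**Figure D2:**
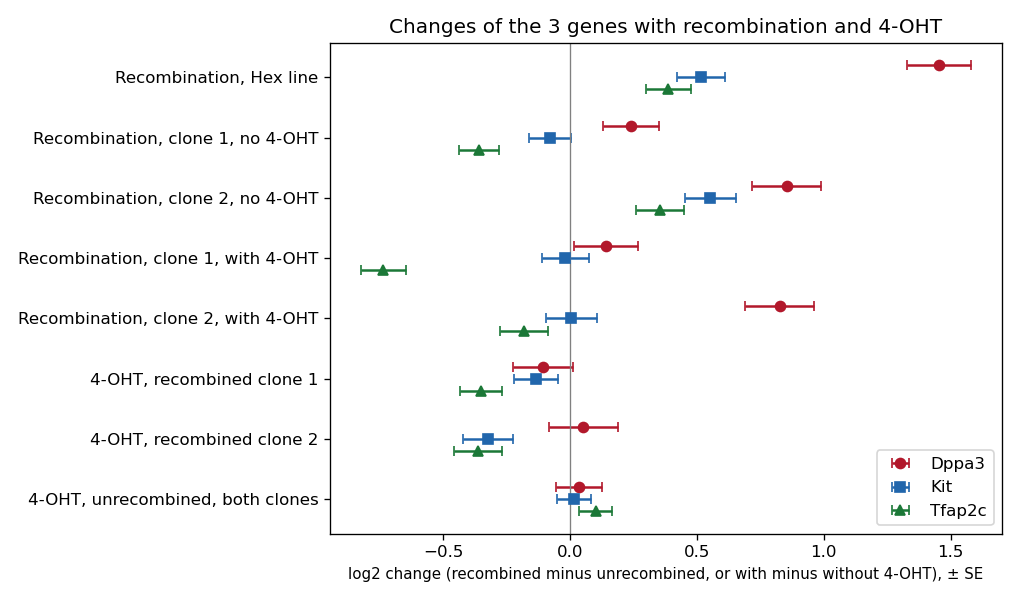
Log2 change (horizontal axis, ± SE) of Dppa3, Kit and Tfap2c with recombination and with 4-OHT, fitted without array 2 of unrecombined Hex; each row is a comparison. In the Hex line and in clone 2 without 4-OHT all 3 genes lie right of 0 with recombination, in clone 1 Tfap2c lies left of it (−0.36), and with 4-OHT Tfap2c lies left of 0 in both recombined clones (−0.35 and −0.36).

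Over the 11 group means, without array 2 of unrecombined Hex, Pearson's r was 0.82 between Dppa3 and Kit, 0.68 between Kit and Tfap2c and 0.45 between Dppa3 and Tfap2c. These are descriptions over groups that share a cell line and their processing. The means include both Hex groups, and the genes were chosen for the same direction of difference between them. Values of r between the genes are therefore in part set by that choice. The genes most like Dppa3 by the same measure were Crxos (0.96), Kitl (0.95), Pdia5 (0.94), Tmem50b (0.93) and Cyb561 (0.93, and 0.50 with array 2). Those most like Kit were Pttg1ip (0.95), Rcn1 (0.94), Ankrd40 (0.93), Adprm (0.92) and Amz2 (0.92). For Tfap2c they were Lypla1 (0.93), Lima1 (0.93), the chemokine gene Cxcl12 (0.93), Psme1 (0.90) and Laptm4b (0.89). Of all probe sets, 0.153% had an r above 0.9 with Dppa3, 0.0805% with Kit and 0.0242% with Tfap2c.

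Kitl, the gene of the ligand of Kit, had an r of 0.95 with Dppa3 and of 0.74 with Kit. It was picked for the first value, so the order of these values was favoured by that choice. Levels of Kitl were below the median of all probe sets, with group means from 5.11 to 5.76. It was named here for its likeness to Dppa3 over these same group means, so its tests give no separate support to the values of Dppa3. Kitl rose with recombination of HexERTVP2 without 4-OHT (0.36 ± 0.08, adjusted p = 0.0240) and in clone 2 alone (0.52 ± 0.12, adjusted p = 0.0467). In clone 1 its change was 0.19 ± 0.10 (adjusted p = 0.912). Kitl was lower than wild type in unrecombined HexERTVP2 cells (−0.52 ± 0.09, adjusted p = 8.53e-04). In the Hex line it was higher in recombined than in unrecombined cells by 0.50 ± 0.10 (adjusted p = 0.0035), and its change with 4-OHT in recombined cells was −0.08 ± 0.08 (adjusted p = 1.0).

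Along the chromosome, the next measured gene after Dppa3 on chromosome 6 was Nanog, a core pluripotency factor, in the RefSeq gene order. Nanog had an r of 0.92 with Dppa3 over the group means, 8th of all probe sets with Dppa3 itself counted. Recombined Hex cells had 0.65 ± 0.15 log2 units more Nanog than unrecombined ones (adjusted p = 0.0083). Without 4-OHT the change with recombination was 0.71 ± 0.17 in clone 2 (adjusted p = 0.0628, and 0.0016 without array 2). In clone 1 it was 0.11 ± 0.14 (adjusted p = 0.9745, and 0.722 without array 2). Under 4-OHT the change in clone 2 was 0.43 ± 0.17, which did not pass with or without array 2. The glucose transporter gene Slc2a3, next after Nanog, had an r of 0.62 with Dppa3, near the 95th percentile of all probe sets (0.623), and was lower in unrecombined Hex cells than in wild type (−0.89, adjusted p = 0.0376). Gdf3, a TGF-β family ligand gene on the other side of Dppa3, had an r of 0.36, Apobec1 0.01, Mfap5 −0.00 and C3ar1 0.12. Around Kit on chromosome 5, the receptor genes Pdgfra and Kdr had r of −0.25 and −0.32 with it, Fip1l1 0.11, Lnx1 0.38, Tmem165 0.54 and Clock 0.72. Around Tfap2c on chromosome 2, r lay between −0.49 (Rbm38) and −0.09 (Rae1) for Aurka, Cstf1, Rtf2, Bmp7, Rae1 and Rbm38.

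**Figure D3:**
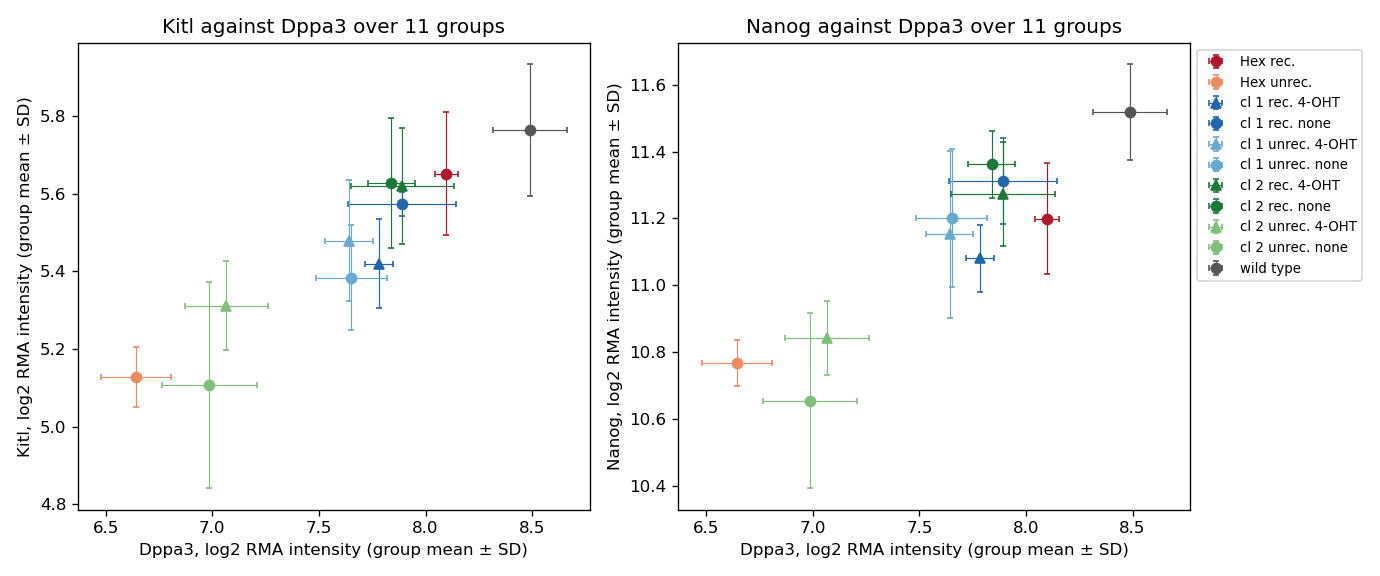
Group means (± SD) of Kitl and Nanog (vertical axes, log2 RMA intensity) against those of Dppa3 (horizontal axes), 1 point for each of 11 groups, without array 2 of unrecombined Hex; triangles are groups with 4-OHT. Unrecombined Hex and unrecombined clone 2 lie at the lower left and wild type at the upper right in both panels (r of 0.95 for Kitl and 0.92 for Nanog).

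Other genes of germ cell precursors were taken from a list. Of 45 further germ cell precursor and germline genes 31 were on the array, and 0 of them passed limma's test with recombination without 4-OHT in either clone or with 4-OHT in recombined cells. Of all probe sets 0.322% were called in clone 2, 0.547% in clone 1 and 0.0322% with 4-OHT, so 0 calls among 31 genes is near these shares. At an unadjusted p under 0.05 in limma the counts were 1 in clone 2, 3 in clone 1 and 0 with 4-OHT. Of all 12422 probe sets the counts were 1392, 719 and 191. The widest differences in these comparisons were those of Rhox5 with recombination in clone 2 (0.60 ± 0.21, adjusted p = 0.250), which passed without array 2 of unrecombined Hex, Dppa2 with recombination in clone 1 (0.48 ± 0.19, adjusted p = 0.602) and Dppa2 with 4-OHT in recombined cells (−0.26 ± 0.15, adjusted p = 1.0). In unrecombined clone 2 against wild type 0 rose and 1 fell, the homeobox gene Rhox5 (−1.82, adjusted p = 1.42e-07). The median change of the list was 0.01 against 0.07 for all probe sets, of which 6.79% were called. Without array 2 of unrecombined Hex 1 rose and 5 fell, in a comparison in which 25.4% of all probe sets were then called. Rhox5 was also lower in unrecombined clone 2 than in unrecombined clone 1 (−1.40, adjusted p = 1.31e-05). In recombined against unrecombined Hex cells 0 rose and 1 fell, Dmrt1 (−0.63, adjusted p = 0.0088), where 3.37% of all probe sets were called. Without array 2 of unrecombined Hex 0 rose and 4 fell (6.26% of all probe sets called).

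Among 19 measured genes of the signals that induce germ cell precursors, 3 rose and 0 fell in recombined against unrecombined Hex cells. These were the BMP target Id3 (1.001, adjusted p = 0.0093), the BMP signal transducer Smad1 (0.59, adjusted p = 0.0464) and the Wnt antagonist Dkk1 (0.25, adjusted p = 0.0454). Of all probe sets 3.37% were called there. Without array 2 the counts were 1 and 0, with 6.26% of all probe sets called. In unrecombined clone 2 against wild type 0 rose and 1 fell, Il6st, the shared receptor chain gp130 (−0.89, adjusted p = 0.0030), where 6.79% of all probe sets were called. Without array 2 of unrecombined Hex 0 rose and 6 fell (25.4% of all probe sets called). With recombination in clone 2 the counts were 0 and 0 (0.322% of all probe sets called), and 1 and 0 without that array (4.17% called).

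Of 25 measured genes of Kit receptor signalling, 1 rose and 0 fell with recombination in clone 2, and that gene was Kitl (0.322% of all probe sets called). Without array 2 of unrecombined Hex 2 rose and 0 fell (4.17% of all probe sets called). In unrecombined clone 2 against wild type 1 rose and 3 fell: the kinase gene Src was higher (0.31, adjusted p = 0.0339), and Kitl (−0.66, adjusted p = 3.59e-04), Map2k1 (−0.61, adjusted p = 0.0277) and Sos1 (−0.49, adjusted p = 0.0170) were lower. The median change of the list was 0.05 against 0.07 for all probe sets, of which 6.79% were called. Without array 2 of unrecombined Hex 5 rose and 5 fell (25.4% of all probe sets called).

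Of 24 measured genes of the AP-2 family and of trophoblast, 3 rose and 0 fell in recombined against unrecombined Hex cells, namely the epithelial keratins Krt19 (1.38, adjusted p = 0.0045) and Krt8 (1.02, adjusted p = 0.0010) and the AP-2 coactivator gene Cited1 (0.26, adjusted p = 0.0194). Of all probe sets 3.37% were called there. Without array 2 of unrecombined Hex 4 rose and 1 fell (6.26% of all probe sets called). With recombination of clone 1 without 4-OHT, 1 rose, the keratin Krt18 (0.90, adjusted p = 0.0137), in the comparison in which Tfap2c was lower (0.547% called). Without that array 2 rose (1.32% called). In unrecombined clone 2 against wild type 1 rose (Ascl2, 0.35, adjusted p = 0.0195) and 2 fell, Fgfr2, the FGF receptor of trophoblast (−0.65, adjusted p = 1.81e-05), and Ets2 (−0.35, adjusted p = 0.0348). Of all probe sets 6.79% were called there. Without array 2 of unrecombined Hex the counts were 4 and 4 (25.4% of all probe sets called).

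Of 14 measured genes that act with Dppa3 on DNA methylation or depend on it, 0 rose and 2 fell in unrecombined clone 2 against unrecombined clone 1 (0 and 4 without array 2 of unrecombined Hex). Both were imprinted genes, Mest (−2.58, adjusted p = 8.83e-08) and Peg3 (−1.02, adjusted p = 5.14e-04). Of all probe sets 2.01% were called in this comparison, and 12.5% without array 2. Mest and Peg3 also fell in unrecombined clone 2 against wild type (−1.70, adjusted p = 1.88e-04 for Mest, and −0.70, adjusted p = 0.0159 for Peg3), where 6.79% were called. Mest was lower in recombined clone 2 than in recombined clone 1 as well (−2.23, adjusted p = 7.48e-06), where Dppa3 differed by −0.05 (95% interval −0.45 to 0.35).

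Of 21 measured naive pluripotency genes, 0 rose and 4 fell in unrecombined clone 2 against wild type (2 and 8 without array 2 of unrecombined Hex, where 25.4% of all probe sets were called). The 4 were Klf4 (−0.94, adjusted p = 0.0134), Tfcp2l1 (−0.91, adjusted p = 0.0013), Nanog (−0.86, adjusted p = 8.36e-04) and Nr5a2 (−0.55, adjusted p = 0.0046), all transcription factors. The median change of the list was −0.19 against 0.07 for all probe sets, of which 6.79% were called with all arrays. In recombined against unrecombined Hex cells 3 rose and 0 fell, Nanog, Klf2 (0.53, adjusted p = 0.0013) and Tbx3 (0.32, adjusted p = 0.0398), where 3.37% of all probe sets were called. Without array 2, 3 rose and 5 fell (6.26% of all probe sets called), so more of the list then fell than rose. With recombination of HexERTVP2 without 4-OHT, averaged over the clones, 0 rose and 0 fell (0.467% of all probe sets called). Without array 2 of unrecombined Hex 8 rose and 0 fell there (3.38% called). The counts without that array were 6 and 0 in clone 2 (4.17% called) and 1 and 0 in clone 1 (1.32% called). In recombined against unrecombined HexERTVP2 cells both given 4-OHT, where Tfap2c fell, Klf2 fell too (−0.37, adjusted p = 0.0335) and Nr0b1 rose (1.08, adjusted p = 8.96e-05).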

How the data were processed

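The deposited values are RMA intensities on the linear scale, 1 per probe set and array (RMA is named in the submitters' processing notes, with no version or settings; which arrays were normalised together is not given in the sources used here). RMA corrects background, normalises by quantiles and summarises probes. Intensities were converted to log2 here, and array number, not depth, limits the precision. Of 12488 probe sets, 66 controls were left out. Groups came from the titles. The 11 group means of 40 arrays were fitted in limma 3.58.1 (R 4.3.3; lmFit and eBayes, 29 residual degrees of freedom), with Benjamini-Hochberg adjustment over 12422 probe sets per comparison and a threshold of 0.05; errors of changes are SEs. The procedure was tested on simulated data. List genes were represented by their brightest probe set, and those named were up to 4 past the threshold with the largest change, members left out. The 5 genes most like a member and the 3 nearest measured genes on each side were named. Gene names came from the platform annotation, and order along the chromosome and the promoter from RefSeq (GRCm38.p6). The files name no build. The members and lists were chosen with earlier results of these data known. Alternatives were median centring, a second quantile normalisation, the brighter probe sets alone, eBayes with trend, array weights, a replicate block, the β-actin ratio as covariate, only the arrays compared, and single arrays left out. The split by clone and the covariate combined with leaving out array 2 of unrecombined Hex were chosen after seeing the data. Python 3.11.15 with matplotlib 3.10.9 drew the figures.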

Additional observations from a re-analysis of the deposited data

Results flagged for a closer look

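Tfap2c read 8.04 on array 2 of unrecombined Hex, and the gap to the next array of that group was large for the range of the 4 arrays. The same array was the lowest of its group for Dppa3 and Kit.

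In wild-type cells 1 array read 9.36 for Tfap2c while the other 3 lay between 9.42 and 9.43, a gap of 0.06 log2 units within a narrow group. Of 18 gene and group combinations with 4 or more arrays, chance alone flags about 1 in 20.

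The change of Tfap2c with recombination without 4-OHT was 0.71 log2 units higher in clone 2 than in clone 1, and every recombined array lay above the unrecombined ones in clone 2 and below them in clone 1. The test of that difference gave an adjusted p of 0.112 in limma with all arrays and 0.0010 without array 2 of unrecombined Hex.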

How the results depend on the processing

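Of 513 tested values of the genes under alternatives other than leaving out single arrays, 453 kept their direction and their side of the threshold, 44 passed where the value with all arrays had not, 15 changed sign (none of them called) and 1 no longer passed, Dppa3 in unrecombined clone 1 against wild type after a second quantile normalisation (−0.80). Of 81 described values without a test, 1 moved beyond the spread of the arrays. The cause was not tested. Fits with array weights and fits without array 2 of unrecombined Hex made further calls. Signal is relative intensity with no count of molecules.

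With array weights, Dppa3 passed for recombination without 4-OHT (0.56), for both with 4-OHT (0.34) and for clone 2 against clone 1 (−0.33). Kit passed for the clone difference of the recombination response (0.59), and Tfap2c for 4-OHT in recombined cells (−0.40), for the 4-OHT response of recombined minus unrecombined cells (−0.52), for clone 2 against clone 1 (−0.21) and for the clone difference of the recombination response (0.75). Fitted on only the arrays compared, Dppa3 passed for recombination (0.55), for both with 4-OHT (0.48) and for clone 2 against clone 1 (−0.30). With the β-actin covariate and without array 2, Dppa3 passed in the same comparisons (0.48, 0.47 and −0.30) and for the clone difference (0.66). Kit then passed for recombination (0.24) and the clone difference (0.63), and Tfap2c for 4-OHT in recombined cells (−0.33), the 4-OHT response difference (−0.39), clone 2 against clone 1 (−0.17) and the clone difference (0.76). After a second quantile normalisation Tfap2c in recombined Hex against wild type was −0.035 in place of −0.15.

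Signs changed for Dppa3 in the clone difference of the 4-OHT response (−0.013, array weights), for 4-OHT in recombined clone 2 (−0.16 with array weights and −1.67e-05 with covariate and without array 2) and for recombined clone 2 against clone 1 (0.014, covariate and without array 2). They changed for Kit with 4-OHT in unrecombined cells (−0.043, array weights), for both with 4-OHT (0.0022 with array weights and 0.0020 with the covariate) and for recombination with 4-OHT in clone 1 (0.0042, median centring) and clone 2 (−0.0057 with centring and −0.016 with quantiles). For Tfap2c they changed for recombination averaged over clones (0.011 with centring and 0.025 with array weights) and for the clone difference of the 4-OHT response (0.045 with quantiles and 0.0025 with array weights).

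With the replicate block, Tfap2c passed for the clone difference of the recombination response (0.78, adjusted p = 0.0127), Kit with 4-OHT in unrecombined cells was −0.011, and no other call on the genes changed. Residuals of arrays with the same number correlated at a median of 0.18 (−0.70 to 0.85), against −0.08 for arrays with different numbers. Of the pairs with the same number 77 of 163 lay under 0.1, and 17 of 39 arrays correlated best with their own number. Whether arrays with the same number belong together was not tested, and the main fit did not pair them. The block moved the count of called probe sets beyond 1.5 times for recombination in clone 2 (78 against 40).

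Leaving out 1 array at a time gave these ranges. For Dppa3 they were −0.083 to 0.037 (4-OHT, recombined), −0.029 to 0.070 (4-OHT, unrecombined), −0.12 to 0.0021 (their difference), 0.48 to 0.58 (recombination), 0.43 to 0.55 (both with 4-OHT), −0.32 to −0.26 (clone 2 against clone 1), −0.18 to 0.0023 and −0.058 to 0.18 (4-OHT in recombined clones 1 and 2) and −0.12 to 0.058 (recombined clone 2 against clone 1). For Kit they were −0.029 to 0.061 (4-OHT, unrecombined), 0.21 to 0.28 (recombination), −0.032 to 0.036 (both with 4-OHT), −0.60 to −0.51 (unrecombined against wild type), 0.58 to 0.73 (clone difference of recombination) and −0.069 to 0.067 and −0.036 to 0.059 (recombination with 4-OHT in clones 1 and 2). For Tfap2c they were −0.39 to −0.33 (4-OHT, recombined), −0.49 to −0.42 (its difference from unrecombined), −0.037 to 0.035 (recombination), −0.49 to −0.44 (both with 4-OHT), −0.19 to −0.15 (clone 2 against clone 1), −0.057 to 0.062 (clone difference of 4-OHT) and 0.64 to 0.76 (clone difference of recombination).

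Counts of called probe sets moved more than the genes. With array weights and with the covariate without array 2, against all arrays, they were 1442 and 1638 against 419 for recombined against unrecombined Hex, 559 and 428 against 58 for recombination of HexERTVP2, 97 and 35 against 4 for 4-OHT in recombined cells, 24 and 10 against 2 for its difference from unrecombined cells, 248 and 181 against 23 for both with 4-OHT, 728 and 761 against 151 for clone 2 against clone 1, 242 and 517 against 36 for the clone difference of recombination, and 1372 and 2480 against 181 for unrecombined cells against wild type.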

Other observations

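For 4 arrays the words and the array code of the title name different clones or treatments. The array of unrecombined cells with 4-OHT that is named both clone 1 and clone 2 read 7.89 for Dppa3, 7.56 for Kit and 9.50 for Tfap2c. The array of unrecombined clone 2 that is named both with and without 4-OHT read 6.93, 7.31 and 8.60 for the same genes. Of the recombined arrays named clone 1 with 4-OHT in words, the one coded as clone 2 without 4-OHT read 8.01, 7.50 and 9.05, and the one coded as clone 2 with 4-OHT read 8.01, 7.55 and 8.87.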
